A study of Mus musculus with 8 samples.

Results

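The 10 genes described here make, restrain or read the nitric oxide and cyclic GMP signal: Ddah1, Ddah2, Nos1, Nos2, Nos3, Pde2a, Pde5a, Pde9a, Pde11a and Prkg1. They were chosen by gene symbol, and all 10 were measured among 22180 genes with a symbol of their own, each by 1 probe set. The arrays carried RNA from whole frozen hearts, labelled as myocardium, of 8 mice, 4 females and 4 males. All mice were heterozygous for Pcyt2 (Pcyt2+/-), whose enzyme makes CDP-ethanolamine for phosphatidylethanolamine synthesis, and all were 8 months old, with hearts taken 3 to 4 hours after lights on. Sex was the only labelled difference between the groups, the labels name no strain or treatment, and hearts of wild-type mice were not analysed here.

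Nitric oxide synthases form nitric oxide from arginine, and nitric oxide switches on soluble guanylate cyclase, which makes cyclic GMP. Asymmetric dimethylarginine, released when methylated proteins are broken down, inhibits the synthases, and the DDAH enzymes degrade it. Phosphodiesterases end the cyclic GMP signal, and its protein kinase, encoded by Prkg1, relaxes smooth muscle and modulates contraction and growth of heart muscle.

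The values were log2 values relative to the median of each probe set over the 8 arrays, so a value of 0 is the middle of these hearts and no absolute level is known. Whether a probe set lay above background, and which gene of the group was the more abundant, cannot be read from such values. Differences are females minus males, with the standard error (SE) of the limma model. The group was put forward because Ddah1 and Pde11a were among the autosomal genes with the smallest p in this very comparison. The differences of the members are therefore a description, and counts of members past a threshold are given only beside those of all genes. In whole hearts, fewer cells of a type and less RNA per cell cannot be told apart.

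Ddah1 and Pde11a were lower in every female heart than in any male heart. The stretches upstream of their transcription starts are shown beside that of Ddah2, the close relative of Ddah1 whose mean difference ran the other way. Each stretch holds the 250 bases before a start annotated by RefSeq, written 5′ to 3′, with GC boxes (GGGCGG on either strand) in capitals.
Ddah1 (GRCm38.p6, chr3:145758442-145758691, plus strand): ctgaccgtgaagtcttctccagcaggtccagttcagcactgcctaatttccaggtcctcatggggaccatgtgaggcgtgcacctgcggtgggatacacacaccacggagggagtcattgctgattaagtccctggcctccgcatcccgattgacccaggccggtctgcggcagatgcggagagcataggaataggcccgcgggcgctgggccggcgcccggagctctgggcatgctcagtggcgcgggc
Ddah2 (GRCm38.p6, chr17:35058785-35059034, plus strand): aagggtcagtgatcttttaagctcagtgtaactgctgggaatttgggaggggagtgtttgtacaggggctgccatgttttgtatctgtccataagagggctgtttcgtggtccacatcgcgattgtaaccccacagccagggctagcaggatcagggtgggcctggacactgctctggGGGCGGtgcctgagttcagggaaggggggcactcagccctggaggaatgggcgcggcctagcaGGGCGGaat
Pde11a (GRCm38.p6, chr2:76338939-76339188, minus strand): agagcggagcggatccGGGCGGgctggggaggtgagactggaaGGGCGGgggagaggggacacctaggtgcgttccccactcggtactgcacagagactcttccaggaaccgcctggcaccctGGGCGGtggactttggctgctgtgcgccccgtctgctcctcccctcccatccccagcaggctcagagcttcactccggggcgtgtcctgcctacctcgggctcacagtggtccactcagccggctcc
The Pde11a stretch held 3 GC boxes, that of Ddah2 held 2 and that of Ddah1 held 0. GC content was 64.0% upstream of Ddah1, 58.0% upstream of Ddah2 and 68.4% upstream of Pde11a, against a median of 52.4% over 32851 such windows of mouse genes. RefSeq windows were found for 7 members, which had 12 windows in all, since Pde2a and Prkg1 have several starts. No window was found for the members Nos2, Nos3 and Pde9a. GC boxes stood in 6 of the 12 windows and in 32.7% of all windows, and the CCAAT box (CCAAT) in 2 of the 12 and in 33.8% of all. The TATA box (TATAAA, 12.4% of all windows), the E box (CACGTG, 6.02%) and the cyclic AMP response element (TGACGTCA, 1.55%) stood in 0 of the 12. The full estrogen response element (GGTCA and TGACC with 3 free bases between them, 0.0639%) and the full androgen response element (AGAACA and TGTTCT with 3 free bases between them, 0.00913%) also stood in 0 of the 12. Both strands were searched and no motif contains another. A match or its absence describes letters in a window only.

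Ddah1 encodes an enzyme that breaks down asymmetric dimethylarginine. Its values were -0.066, -0.14, -0.20 and -0.18 in female hearts 1 to 4, against 0.17, 0.16, 0.11 and 0.066 in male hearts 1 to 4. The sexes did not overlap, and the gap between female heart 1 and male heart 4 was about as wide as the whole range of the females. Ddah1 averaged -0.15 ± 0.059 in females and 0.12 ± 0.048 in males (SD, n = 4 each). Its difference was -0.27 ± 0.04 (SE, limma adjusted p = 0.137), or 1.21-fold lower in females. Its spread within the sexes was 0.054, below that of most genes on these arrays (28.7th percentile of 22180), while the size of its difference stood at the 99.3rd percentile. Difference and spread both enter the p for which Ddah1 was put forward, so neither percentile is a separate result. With each heart left out in turn the difference stayed between -0.30 and -0.25. Since the sexes did not overlap, leaving out a heart could not turn its sign.

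Ddah2 encodes the other isoenzyme, and its means stood the other way. Its values were 0.18, 0.023, -0.0059 and 0.0059 in female hearts 1 to 4, against -0.042, -0.21, -0.12 and 0.032 in male hearts 1 to 4. The sexes overlapped: female heart 1 stood above all others, and male heart 4 was higher than the other 3 females. The difference was 0.14 ± 0.061 (SE), from means of 0.052 ± 0.089 in females and -0.085 ± 0.10 in males (SD, n = 4 each). It was 0.093 without female heart 1, 0.096 without male heart 2 and 0.052 without the 3 hearts with the highest fast skeletal myosin Myh4 (female 1, male 1 and male 2). The 2 DDAH genes thus had mean differences of opposite sign, and whether these differ from each other was not tested.

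**Figure D1:**
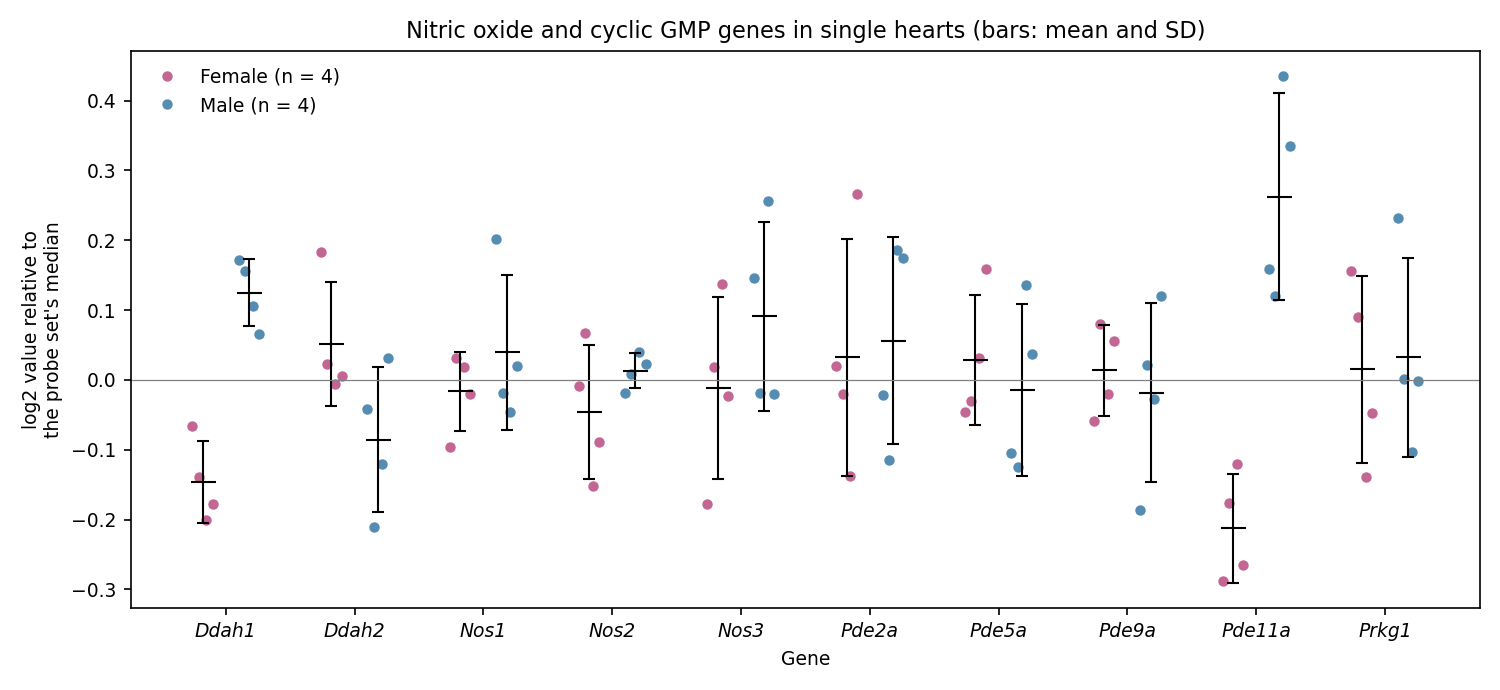
The log2 value of each of the 10 genes, relative to its probe set's median (vertical axis), is a point for each of 4 female hearts (left of each pair) and 4 male hearts (right), with mean and SD as bars. The female and male points are apart for Ddah1 and Pde11a and overlap for the other 8 genes.

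The 3 nitric oxide synthase genes had lower means in females, by less than 1 SD within the sexes. Nos3 encodes the endothelial synthase. Its values were -0.18, 0.018, 0.14 and -0.024 in female hearts 1 to 4, against 0.15, -0.018, 0.26 and -0.02 in male hearts 1 to 4. The sexes overlapped, with female heart 1 lowest and male heart 3 highest, and the difference was -0.10 ± 0.081 (SE). Female heart 1 was also lowest, and male heart 3 highest, in the mean of 12 endothelial markers, at -0.14 and 0.056, with the other 6 hearts between -0.011 and 0.026. With that mean as a covariate the Nos3 difference was -0.033. It was -0.047 without female heart 1 and -0.048 without male heart 3.

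Nos1 encodes the neuronal synthase, which heart muscle cells also contain. Its values were -0.096, 0.031, 0.018 and -0.02 in female hearts 1 to 4, against 0.20, -0.018, -0.046 and 0.02 in male hearts 1 to 4. Male heart 1 stood well above the other 7, of which female heart 2 came next. The difference of -0.056 ± 0.057 (SE) was -0.0021 without male heart 1, and turned to 0.022 without the 3 hearts with the highest Myh4. Nos2, the inducible synthase of inflammation, was at -0.0081, 0.068, -0.15 and -0.09 in female hearts 1 to 4, against -0.018, 0.0081, 0.04 and 0.022 in male hearts 1 to 4. The 4 males lay inside the range of the females, and the difference was -0.059 ± 0.048 (SE). It was -0.023 without female heart 3 and -0.13 without the 2 hearts with the highest albumin gene Alb (female 1 and female 2).

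Among the phosphodiesterases, Pde11a had the largest difference of all 10 members. Its enzyme cleaves cyclic GMP and cyclic AMP alike. The values were -0.29, -0.18, -0.12 and -0.26 in female hearts 1 to 4, against 0.16, 0.12, 0.43 and 0.34 in male hearts 1 to 4. The sexes did not overlap, and male hearts 3 and 4 stood apart above male hearts 1 and 2. Pde11a averaged -0.21 ± 0.078 in females and 0.26 ± 0.15 in males (SD, n = 4 each). Its difference was -0.47 ± 0.073 (SE, limma adjusted p = 0.160), or 1.39-fold lower in females. The difference stayed between -0.52 and -0.42 with each heart left out in turn, which without overlap could not turn its sign. Quantile normalization gave -0.57 with a larger SE of 0.12 (limma adjusted p = 0.396). Male hearts 3 and 4 were also the highest in the mean of 11 smooth muscle and pericyte markers, and with that mean as a covariate the difference of Pde11a was -0.39. It was -0.57 without the 3 hearts with the highest Myh4, which left 3 females and male hearts 3 and 4.

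Pde5a, the cyclic GMP phosphodiesterase blocked by sildenafil, had overlapping sexes. Its values were -0.045, -0.031, 0.031 and 0.16 in female hearts 1 to 4, against -0.11, -0.13, 0.14 and 0.038 in male hearts 1 to 4. Female heart 4 and male heart 3 were highest, and male hearts 1 and 2 lowest. The difference of 0.043 ± 0.068 (SE) changed sign in 3 of 19 alternatives, some of which cannot move a difference.

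Pde2a encodes a phosphodiesterase that cyclic GMP itself stimulates, linking it to cyclic AMP. It was at 0.02, -0.02, -0.14 and 0.27 in female hearts 1 to 4, against -0.022, -0.11, 0.19 and 0.17 in male hearts 1 to 4. It was highest in female heart 4 and male hearts 3 and 4, and lowest in female heart 3 and male heart 2. The means of the smooth muscle and pericyte markers were -0.045, 0.0039, -0.057 and 0.024 in female hearts 1 to 4, against 0.044, -0.058, 0.10 and 0.12 in male hearts 1 to 4. Female heart 3 and male heart 2 were thus lowest, and male hearts 3 and 4 highest, in these markers as well. Of the 11 markers, 10 had lower means in females, and 0 passed the adjusted threshold. The Pde2a difference of -0.024 ± 0.095 (SE) was 0.12 with the marker mean as a covariate, and that of Pde5a was then 0.13. Other settings moved both the opposite way. With the mean of fast skeletal muscle markers as a covariate, Pde2a was at -0.10 and Pde5a at -0.025. Without the 3 hearts with the highest Myh4, Pde2a was at -0.14 and Pde5a at -0.034. The Pde2a difference changed sign in 6 of 19 alternatives.

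Pde9a, whose enzyme cleaves cyclic GMP with high affinity, had values of -0.059, 0.079, -0.021 and 0.056 in female hearts 1 to 4, against -0.19, 0.021, -0.027 and 0.12 in male hearts 1 to 4. The females lay within the range of the males, which spanned the lowest and the highest heart. Its difference was 0.032 ± 0.064 (SE), or -0.024 without male heart 1. Prkg1, the cyclic GMP-dependent kinase, had values of 0.16, 0.09, -0.14 and -0.048 in female hearts 1 to 4, against 0.23, 0.0017, -0.10 and -0.0017 in male hearts 1 to 4. The hearts numbered 1 were highest and those numbered 3 lowest in each sex, and the labels do not say whether the numbers pair hearts. Its difference was -0.017 ± 0.084 (SE), smaller than its SD in either sex, and changed sign in 5 of 19 alternatives.

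**Figure D2:**
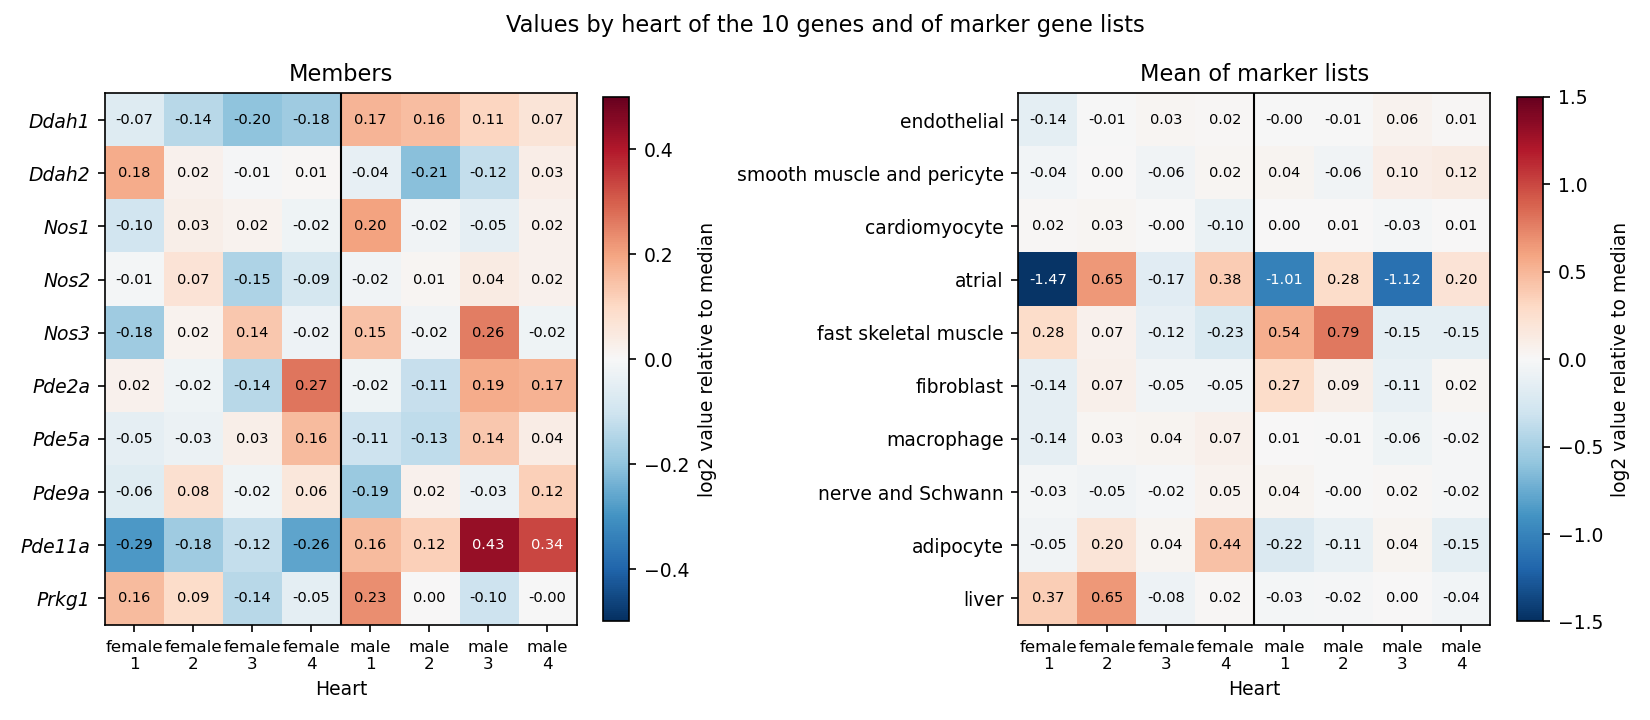
Log2 values relative to the median over the 8 arrays are coloured for the 10 genes (left) and for the means of 10 marker lists (right), with a column per heart, 4 females before 4 males. The scales of the panels differ, and the atrial and fast skeletal muscle lists vary more between hearts than any member.

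Over the 10 members, 7 had lower and 3 had higher means in females, while 50.4% of all genes had lower ones, with a median difference of -0.04, against -5.8e-04 over all 22180 genes. Of the 10 members, 0 passed an adjusted p of 0.05 in limma, a threshold passed by 0.0316% of all genes. At an unadjusted p under 0.05 there were 2 of 10 members, against 6.96% of all genes. The sexes did not overlap in the same 2, Ddah1 and Pde11a, against 3.74% of all genes, or 1.85% counting only genes lower in females. Since these 2 genes led to the choice of the group, nothing is read from these counts. For 7 of the 10 members the difference was smaller than the SD within the sexes.

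The members varied between hearts more than most genes did. The SD within the sexes had a median of 0.11 over the members, against 0.074 over all genes, and 8 of 10 members lay above that level. It was largest in Pde2a, at 0.16, and smallest in Ddah1. The highest value of a member fell in female hearts for 4 members and in male hearts for 6, and no heart was highest in more than 3 members (male heart 1). Female heart 3 was lowest in 4 members and female heart 1 in 3. No heart was thus highest or lowest in all members, and a smaller common shift was not tested. The mean of the 10 members, which includes Ddah1 and Pde11a, ran from -0.059 in female heart 3 to 0.086 in male heart 3.

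**Figure D3:**
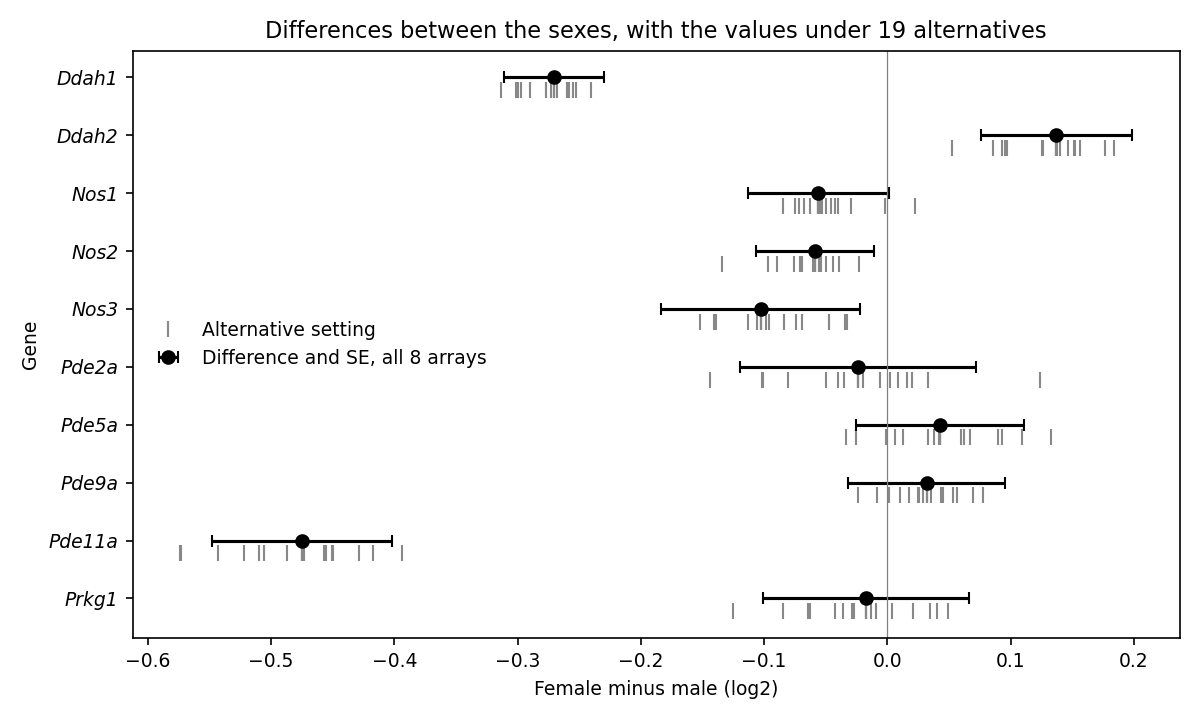
The female minus male difference on the log2 scale (horizontal axis) is given for each gene as a point with its SE, with grey ticks for 19 other settings below it. Ddah1, Ddah2, Nos2, Nos3 and Pde11a kept their sign in all 19, while Pde2a, Pde5a, Pde9a, Prkg1 and Nos1 crossed 0 in at least 1. Some of the 19 leave the difference unchanged by design, so a kept sign there shows nothing. Leaving out hearts could not turn the sign of Ddah1 or Pde11a either, since their sexes did not overlap.

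The rest of the pathway was compared between the sexes in 64 other genes, in 7 lists by role. None of the 64 passed the adjusted threshold in limma (0 higher and 0 lower in females). At an unadjusted p under 0.05 there were 4, or 6.25%, close to the 6.96% of all genes, and the median difference was 0.0011. The sexes did not overlap in 2 of the 64, or 3.12%, against 3.74% of all genes.

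Of 10 genes for guanylate cyclases, natriuretic peptides and their receptors, 5 had higher and 5 lower means in females, and 0 passed. Nppb encodes B-type natriuretic peptide, a ligand of the guanylate cyclase receptor encoded by Npr1. It was at -0.43, -0.022, -0.14 and -0.085 in female hearts 1 to 4, against 0.26, 0.15, 0.023 and 0.022 in male hearts 1 to 4. The sexes did not overlap, though female heart 2 came close to male hearts 3 and 4, and the difference of -0.28 ± 0.091 (SE) had a limma adjusted p of 0.592. Without the 3 hearts with the highest Myh4 it was -0.10. Gucy1b1, the beta subunit of the soluble cyclase that senses nitric oxide, was at -0.12, -0.0033, -0.073 and 0.0033 in female hearts 1 to 4, against 0.088, 0.29, -0.047 and 0.12 in male hearts 1 to 4. Male heart 3 lay among the females, and the difference was -0.16 ± 0.066 (SE, adjusted p = 0.688), or -0.06 without the same 3 hearts.

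Of 7 other genes listed with the cyclic GMP phosphodiesterases, 5 had higher means in females and 0 passed. Pde6d, 1 of the 7, encodes a binding protein that is not itself a phosphodiesterase. Pde1c, a calmodulin-stimulated phosphodiesterase, had a difference of 0.16 ± 0.075 (SE, adjusted p = 0.726). Pde3b, which cyclic GMP inhibits, had 0.19 ± 0.095 (SE, adjusted p = 0.744). Of the 8 cyclic AMP phosphodiesterase genes, 4 had higher and 4 lower means in females. The smallest p in that list belonged to Pde4a, with a difference of -0.097 (adjusted p = 0.828), followed by Pde4b, with 0.079. The Pde4a difference was -0.016 with the smooth muscle and pericyte mean as a covariate and -0.18 without the 3 hearts with the highest Myh4. That of Pde4b was 0.035 without female heart 2 and 0.14 without those 3 hearts. None of these 15 genes differed as far as Pde11a, whose own difference had put it in the group.

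Among 11 partners and targets of the cyclic GMP kinase, 4 had higher and 7 lower means in females, and 0 passed. Vasp encodes an actin regulator that the kinase phosphorylates. It was at -0.11, 0.0041, -0.12 and -0.0041 in female hearts 1 to 4, against 0.16, -0.017, 0.097 and 0.14 in male hearts 1 to 4. Male heart 2 lay within the females, and the difference was -0.15 ± 0.05 (SE, adjusted p = 0.592). With the smooth muscle and pericyte mean as a covariate it was -0.087. Kcnmb1, a smooth muscle subunit of the large-conductance potassium channel, had a difference of -0.13 ± 0.061 (SE, adjusted p = 0.727).

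On the side of arginine, 12 genes of arginine and methylarginine supply and turnover split into 6 with higher and 6 with lower means in females. For the arginine transporter gene Slc7a1 females minus males came to 0.12 ± 0.075 (SE, adjusted p = 0.797), and to 0.014 with the 3 hearts of highest Myh4 left out. Prmt5, which encodes an arginine methyltransferase, stood at -0.04 ± 0.031 by the same difference (SE, adjusted p = 0.865). All 5 measured genes of tetrahydrobiopterin, the cofactor of the synthases, had higher means in females, as did 49.6% of all genes. Their median difference was 0.024, with 0 past the threshold. The difference of Gchfr was only 3.9e-04 ± 0.061 (SE), and those of Pts and Qdpr were also smaller than their SE. The difference of the reductase gene Spr was 0.12 ± 0.08 (SE, adjusted p = 0.814) over all hearts and 0.039 without female heart 2. Gch1, the entry enzyme of that synthesis, had one of 0.091 ± 0.083 (SE, adjusted p = 0.902), which was 0.029 without female heart 3.

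Of 11 measured partners of the synthases and genes of nitric oxide removal, 4 had higher and 7 lower means in females, and 0 passed. Akt1 encodes a kinase that activates the endothelial synthase. It was at 0.002, 0.066, 0.072 and 0.088 in female hearts 1 to 4, against -0.002, -0.05, -0.037 and -0.036 in male hearts 1 to 4. The sexes did not overlap, but hearts numbered 1 nearly met, and the difference of 0.088 ± 0.031 (SE) had an adjusted p of 0.633. For Cyb5r3, which encodes a reductase, the difference was -0.26 ± 0.13 (SE, adjusted p = 0.736) over all hearts and -0.032 without the 2 hearts with the highest Alb.

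**Figure D4:**
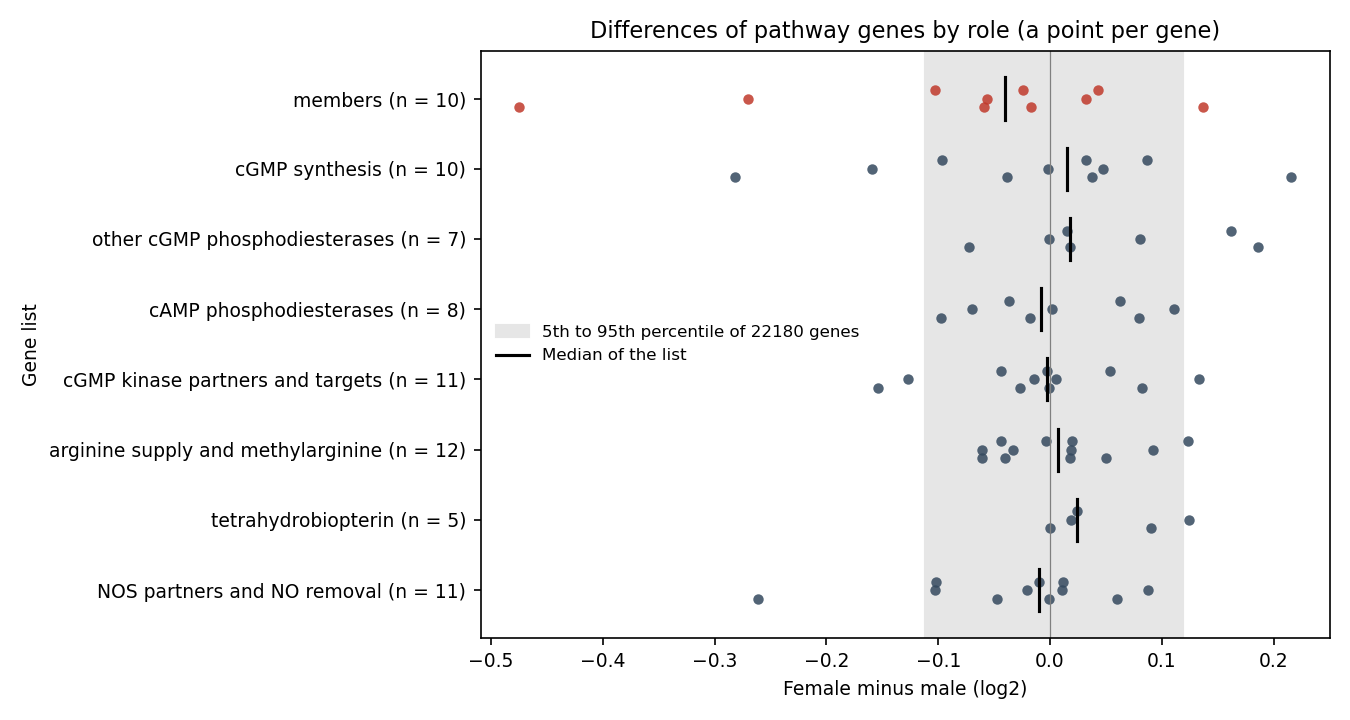
Each point is the female minus male log2 difference of a gene (horizontal axis), by list, with the list's median as a bar and the 5th to 95th percentile of all 22180 genes in grey. The medians of the 7 other lists lie between -0.01 and 0.024, and among the members Pde11a and Ddah1 lie left of the grey band and Ddah2 right of it.

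The genes whose values over the 8 arrays came closest to those of Ddah1 were Ccm2l, Ano5 and Prelid3b, by a mean absolute difference of 0.034, 0.04 and 0.047 on the log2 scale. Ano5, a gene of the anoctamin family of membrane proteins, was at -0.10, -0.21, -0.15 and -0.18 in female hearts 1 to 4, against 0.17, 0.18, 0.21 and 0.10 in male hearts 1 to 4. For Pde11a they were Steap4, Zfp455 and Igsf1, at 0.081, 0.094 and 0.094. Of these genes only Ano5 passed the adjusted threshold over all genes, with a difference of -0.33 ± 0.037 (SE, limma adjusted p = 0.0293). All were picked for likeness to Ddah1 or Pde11a, so their sharing of the lower values in females is not a separate result.

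Across the series, Pcyt2 itself ran from -0.057 to 0.24 in females and from -0.13 to 0.32 in males, a difference of -0.054 ± 0.10 (SE). The lists of markers of other cell types show where hearts stand apart. The fast skeletal muscle mean of 8 genes ran from -0.23 to 0.28 in females and from -0.15 to 0.79 in males, highest in male hearts 1 and 2. The atrial mean of 4 genes ran from -1.47 to 0.65 in females and from -1.12 to 0.28 in males, and was lowest in female heart 1 and male hearts 1 and 3. The liver mean of 6 genes ran from -0.075 to 0.65 in females and from -0.037 to 0.0031 in males, and the adipocyte mean of 6 genes from -0.054 to 0.44 in females and from -0.22 to 0.043 in males. The cardiomyocyte mean of 9 genes ran from -0.10 to 0.032 in females and from -0.029 to 0.0091 in males. Since values are centred, it is not known which of these markers are near background, and the label of myocardium could not be checked by level. Apart from the covariates and left-out hearts given above, the part of these markers in the members' differences was not tested.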

How the data were processed

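RNA of 8 hearts (100 ng total RNA each, biotin-labelled by the Affymetrix protocol, per the labels' protocols) was read on 8 arrays. The deposited log2 values cover 34351 probe sets, all with a median of 0 over the arrays (tolerance 1e-06). Not given in the sources used here were the log base, taken as 2, and how the authors corrected, normalized and summarized the signals. The number of arrays limits the precision, and the median SE of a difference was 0.0497.

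Platform annotation gave 1 symbol for 23521 probe sets, several for 1814 and none here for 9016. Probe sets were averaged to 22180 genes. The comparison of females with males used R 4.3.3 and its package limma 3.58.1 (linear model with a term for sex alone, eBayes), adjusting p over all genes by Benjamini-Hochberg at 0.05. The labels call the samples biological replicates. On simulated data of 22180 genes for females minus males, 47.9% of genes changed by 0.25 and 90.4% of those changed by 0.5 were recovered. The simulation changed 200 genes in independent normal noise. So many changed genes loosen the adjusted threshold compared with these arrays, where 7 genes passed. These percentages are therefore not the power of the present comparison.

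The members, lists and tests were chosen with earlier results of these data known. Named were all members, Pcyt2, the 2 genes of smallest p in each pathway list, and the 3 genes nearest to Ddah1 and to Pde11a. Promoters came from RefSeq (GRCm38.p6). The planned filter on brightness was not run, since centred values hold none. Leaving out hearts of highest Myh4 or Alb was added after seeing the data.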

Additional observations from a re-analysis of the deposited data

Results flagged for a closer look

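Ddah2 in female heart 1, at 0.18, lay far above the next female at 0.023, a gap of 0.847 of the range of the 4 females. It was the only one of 50 groups of 4 hearts examined (25 genes in each sex) with such a gap, while chance alone gives about 1 in 20, or 2.5 of 50. A single such gap is thus fewer than chance would give. Female heart 1 also had the lowest endothelial and atrial means. The cause was not tested.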

How the results depend on the processing

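Of all genes, 7 passed the adjusted threshold. There were 3 with quantile normalization, 4 with the smooth muscle and pericyte mean as a covariate, and 4 to 7 with each heart left out in turn. The cause was not tested. The count of members passing was 0 in every setting except the fast skeletal muscle mean as a covariate, where 1 passed: Pde11a, with a difference of -0.54. Pde11a was chosen for its small p in this comparison, so that pass is a description and no test. The count of other pathway genes passing was 0 throughout. Nos2 was at -0.13 without the 2 hearts with the highest Alb. With the replicate number as a block 8 genes passed, 0 of them members. Same-numbered females and males deviated together only weakly (correlations of 0.137, 0.0972, 0.0062 and 0.0906 over genes). Differently numbered hearts ran from -0.13 (female 1 with male 2) to 0.095 (female 4 with male 2). The highest correlation was thus that of the hearts numbered 1. The main fit did not pair hearts, and whether the numbers mark a pairing or a batch was not tested. Nos1 changed sign in 1 of 19 alternatives and Pde9a in 2. Not all of the 19 could move a difference. A changed variance model, the replicate block and single probe sets (1 per member) returned the main value, and median centring nearly did. Leaving out hearts could not turn the sign of Ddah1 or Pde11a, whose sexes did not overlap. Counts out of 19 are therefore no measure of stability. The numbers of genes with higher and lower means in females were the same in the members and all 7 pathway lists with quantile normalization and with median centring. Median centring could hardly change them, since the array medians lay between -0.0021 and 0.0023.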
